A study of Rattus norvegicus with 6 samples.

Results

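The genes described here are 33 targets of the transcription factor ATF4 that serve amino acid supply, the charging of tRNA with amino acids and the feedback on this response. They were chosen by gene name from a list of members drawn up with earlier results of these data known. All 33 were found among the 34257 genes of the deposited table. By role they comprise 8 synthesis enzymes, 6 amino acid transporters, 12 cytosolic tRNA synthetases and 7 regulators or secreted proteins. Poly(A) RNA was sequenced from neonatal rat ventricular cardiomyocytes, which are heart muscle cells isolated from newborn rats and kept in culture. In 3 libraries the cells had been given 1 µM perhexiline for 24 h, and in the other 3 they had been given vehicle. The labels state neither the composition of the vehicle nor how long it was given. Perhexiline is an antianginal drug known to inhibit carnitine palmitoyltransferase, the enzyme that lets long-chain fatty acids enter mitochondria. Whether replicates are separate cultures or separate animals is not stated, and p-values therefore reflect only how much these 6 libraries vary, which could be technical variation alone.

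ATF4 acts in the integrated stress response. Kinases that sense uncharged tRNA, unfolded protein, viral RNA or lack of haem phosphorylate the initiation factor eIF2, which lowers general translation while the Atf4 mRNA is translated more. ATF4 then pairs with C/EBP or related factors on C/EBP-ATF response elements near genes for amino acid synthesis, transport and tRNA charging, and in heart muscle of mice with damaged mitochondria the same programme is known to raise the secreted factors Fgf21 and Gdf15.

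The response element was looked for as the letters TGATGNAA, read on either strand, in RefSeq promoter windows of the rat build GRCr8. Windows were found for 29 of the 33 members. Of these, 10 (34.5%) held a match in the 250 bases before the annotated start, against 1139 of all 33469 windows of that length (3.40%). The narrower form TGATGCAA, which is a special case of the first, was in 8 of 29 member windows (27.6%) and in 232 of all windows (0.693%). Because the members were listed as ATF4 targets, these shares are not independent of how the list was made. The windows of all genes were not limited to genes expressed in these cells. A match is a run of letters and not a measured binding site, and a window without one says only that these letters are not in it. The stretches below come from RefSeq, GRCr8, run 5′ to 3′ along the strand of the gene, and show the match in capitals. Each is the 60 bases just before the start, except for Aars, where it is 60 bases around a match farther upstream. The first 7 are shown because they hold the match at its place in a regulator, a transporter and 5 synthetases.
Trib3, chr3:161275534-161275593, minus strand: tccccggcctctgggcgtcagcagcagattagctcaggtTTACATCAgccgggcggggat
Slc7a1, chr12:11664428-11664487, plus strand: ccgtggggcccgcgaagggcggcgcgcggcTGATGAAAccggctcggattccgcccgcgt
Nars, chr18:60275783-60275842, minus strand: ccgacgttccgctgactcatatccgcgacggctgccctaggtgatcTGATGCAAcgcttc
Mars, chr7:65023754-65023813, minus strand: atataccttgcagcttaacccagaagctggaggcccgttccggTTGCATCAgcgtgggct
Iars, chr17:15193653-15193712, minus strand: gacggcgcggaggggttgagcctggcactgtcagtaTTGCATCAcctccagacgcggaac
Tars, chr2:62114803-62114862, minus strand: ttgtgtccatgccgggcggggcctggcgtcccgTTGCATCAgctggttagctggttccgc
Aars, chr19:55908344-55908403, plus strand: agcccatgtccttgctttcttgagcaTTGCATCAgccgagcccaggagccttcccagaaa
The next 2 come from genes that rose with perhexiline and whose windows held no match.
Sars, chr2:198769366-198769425, minus strand: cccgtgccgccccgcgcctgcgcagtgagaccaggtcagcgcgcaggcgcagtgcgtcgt
Ppp1r15a, chr1:105139597-105139656, minus strand: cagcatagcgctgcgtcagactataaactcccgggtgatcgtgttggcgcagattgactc

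The matches began close to the start in 6 members, at -14 in Nars, -17 in Mars, -21 in Trib3, -24 in Iars, -27 in Tars and -30 in Slc7a1, counted in bases from the annotated start. They began farther upstream in Aars (-112), Pycr1 (-131), Fgf21 (-143) and Slc1a4 (-235). By role, 5 of 11 synthetases, 2 of 5 transporters, 2 of 6 regulators or secreted proteins and 1 of 7 synthesis enzymes held a match before the start. Of the 10 members with a match, 1 (Trib3) rose with perhexiline in the test described below, and Fgf21 was too low to be tested. Of the 19 without a match, 4 rose. Of all tested genes, 3.55% were called higher. With so few calls, rises with and without a match cannot be compared, and the difference was not tested. Cars and Yars held a match only in the 50 bases after the start. Members without a window were Aldh18a1, Slc1a5, Gars and Eif4ebp1.

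**Figure D1:**
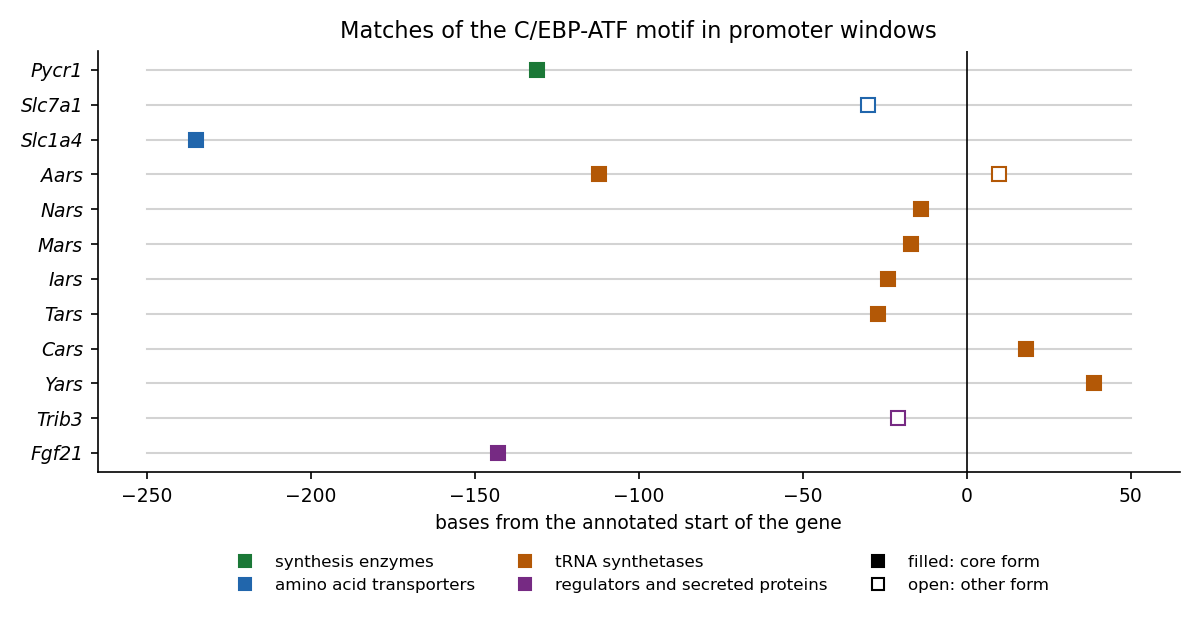
Positions of the motif matches in the promoter windows of the members that hold one, in bases from the annotated start of the gene (x axis), with 1 row per gene, coloured by role. Filled squares are the narrower form of the motif and open squares the other form. Among the 10 members with a match before the start, 6 have it within the last 30 bases, and matches in Aars, Cars and Yars also lie after the start.

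The values are FPKM, fragments scaled to gene length in kilobases and to a depth factor of each library. The libraries held 14863929 to 16702523 recovered fragments with perhexiline and 13616252 to 15241994 with vehicle. The deposited depth factors differed by only -0.94% to 0.32% from factors computed as median ratios of fragments between libraries. From total fragments they differed by 1.39% to 2.89% with perhexiline and by -3.40% to -0.02% with vehicle. A single fragment corresponded to 0.0574 to 0.0727 FPKM for a gene 1 kilobase long, and the tested members held from 78 fragments (Pycr1) to 24466 (Slc38a2) in a library. Defining cardiomyocyte markers were abundant in every library, and their sum over 10 genes was 15806 to 18403 FPKM with perhexiline and 17603 to 22188 with vehicle. The sum over 8 macrophage and leukocyte markers was 28.3 to 40.2 FPKM with perhexiline and 45.6 to 51.1 with vehicle.

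With perhexiline, a minority of the members rose and none fell. Of 31 members that passed the filter on low values, 6 rose, namely Trib3, Ppp1r15a, Slc1a5, Slc6a9, Shmt2 and Sars, with mean FPKM 1.20 to 1.51 times that of vehicle. That is 19.4% of the tested members, where 3.55% of all 13460 tested genes were called higher and 3.11% lower. Because the members were chosen with earlier results of these data known, comparisons of their shares with all genes are not independent ones. The call is an adjusted p under 0.05 in limma on log2(FPKM + 1), adjusted over all tested genes. The count of members with a fall was 0, and at an unadjusted p under 0.05 limma counted 13 members higher and 0 lower (13.4% and 12.3% of all tested genes), while limma-voom on the recovered fragments called 7 higher and 0 lower (5.25% and 6.29%). With no filter on low values, 2 members, Slc1a5 and Slc6a9, were called higher and 0 lower (0.430% and 0.274%). The remaining 25 members were not called in either direction, and their 95% intervals reached at most 0.47 above 0 and 0.30 below it on the log2 scale.

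Small positive differences were common among the members. The log2 difference, perhexiline minus vehicle, was above 0 in 26 of the 31 members and below 0 in 5, with a median of 0.13 and a range from -0.15 to 0.56. Over all tested genes the median was 0.01, and 52.9% were above 0. In 12 members the perhexiline libraries all lay above the vehicle libraries, and in 2, Mthfd2 and Iars, all below, against 17.0% and 14.9% of all tested genes. The median by role was 0.22 for transporters, 0.17 for regulators and secreted proteins, 0.13 for synthesis enzymes and 0.11 for synthetases.

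The number of member calls, like that of all genes, rested on single libraries. It was 0 without perhexiline replicate 2 or perhexiline replicate 3 and 1 without vehicle replicate 1 or vehicle replicate 2, against 6 without perhexiline replicate 1 and 5 without vehicle replicate 3. In these fits the calls over all genes, 896 with every library, were 125, 87, 117, 142, 840 and 841, in that order. The drop in calls was therefore not particular to the members. The calls over all genes were 478 higher and 418 lower (53.3% higher) with the deposited scaling, 815 and 333 (71.0%) when scaled to total fragments and 367 and 498 (42.4%) when scaled to the upper quartile.

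Some markers of cell types also differed between the groups. The cardiomyocyte sum averaged 16804 ± 1399 FPKM with perhexiline and 20513 ± 2529 with vehicle (SD, n = 3 each), and 3 of its 10 genes fell, where 3.11% of all tested genes did. At an unadjusted p under 0.05, 7 of the 10 were lower and 0 higher (12.3% of all genes were lower), and limma-voom called 6 lower and 0 higher. The macrophage and leukocyte sum averaged 34.6 ± 5.97 FPKM with perhexiline and 48.6 ± 2.80 with vehicle, and 2 of 7 tested genes fell. All 7 had negative differences, 4 were lower at an unadjusted p under 0.05 and 3 by limma-voom, and none was higher by either. The smooth muscle and pericyte sum over 6 genes was 532 ± 78.9 FPKM with perhexiline and 775 ± 157 with vehicle, with 0 genes called by limma, 0 higher and 4 lower at an unadjusted p under 0.05 and 0 higher and 2 lower by limma-voom. Most of that sum was Acta2 alone, with 464 ± 72.0 FPKM with perhexiline and 697 ± 149 with vehicle. Of the 6 genes, 4 had negative and 2 positive differences. Of 8 fibroblast markers 2 rose and 1 fell, with sums of 1021 ± 25.3 FPKM with perhexiline and 1066 ± 20.4 with vehicle, and the endothelial sum over 6 genes was 18.0 ± 0.379 FPKM with perhexiline and 16.8 ± 1.29 with vehicle, with 0 of 3 tested genes called by limma or limma-voom and 0 at an unadjusted p under 0.05. Fewer cells of a type and less RNA per cell cannot be told apart in these bulk samples, and the part of these markers in the member differences was not tested.

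**Figure D2:**
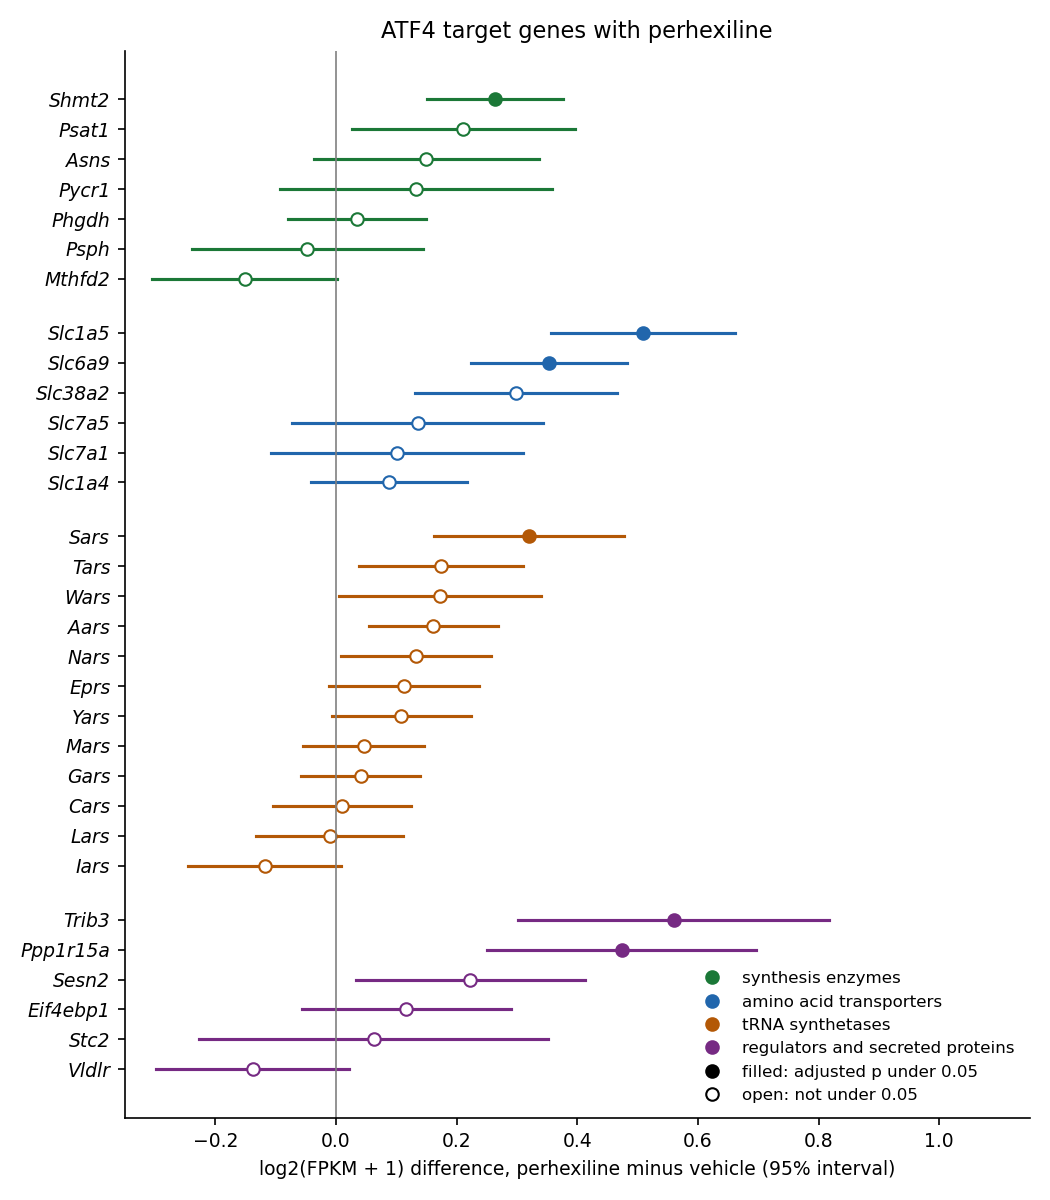
Log2(FPKM + 1) difference, perhexiline minus vehicle, for the 31 tested members (points) with 95% intervals (lines), grouped and coloured by role. Filled points passed the threshold, namely 6 members between 0.26 and 0.56, and 5 of the open points lie below 0.

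Among the regulators and secreted proteins, 2 of 6 tested members rose, where 3.55% of all tested genes did, and both feed back on the response itself. Trib3, a pseudokinase that binds ATF4 and its partner CHOP and restrains them, had 18.8, 24.0 and 24.9 FPKM in the perhexiline libraries, against 14.8, 13.8 and 16.0 in the vehicle libraries. The perhexiline values all lay above the vehicle values, and perhexiline replicate 1 was the nearest to them. The means were 22.5 ± 3.32 FPKM with perhexiline and 14.9 ± 1.13 with vehicle (SD, n = 3 each), a ratio of 1.51 and the largest log2 difference of the 31 tested members, 0.56 (SE 0.11, adjusted p = 0.033). Trib3 passed in 2 of the 6 fits that left out a library, with adjusted p from 0.0157 to 0.114, and was lost without perhexiline replicate 2 (0.114), perhexiline replicate 3 (0.102), vehicle replicate 1 (0.0999) or vehicle replicate 2 (0.102), and also with no filter on low values (0.0816). The gene lies at chromosome 3, 147813473 to 147819571, minus strand, in the deposited table, for which the sources used here name no genome build.

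Ppp1r15a encodes GADD34, the subunit that directs protein phosphatase 1 to eIF2 and so reverses the phosphorylation that starts the response. It had 35.9, 43.8 and 41.0 FPKM in the perhexiline libraries, against 30.8, 29.9 and 25.4 in the vehicle libraries. Again the groups did not overlap, and perhexiline replicate 1 and vehicle replicate 1 were the closest pair. The ratio of means was 1.40 and the log2 difference 0.47 (SE 0.10, adjusted p = 0.0343). Of the 6 fits without a library it passed in 1, that without perhexiline replicate 1 (0.0285). It missed the threshold without perhexiline replicate 2 (0.114), perhexiline replicate 3 (0.108), vehicle replicate 1 (0.0776), vehicle replicate 2 (0.0874) or vehicle replicate 3 (0.0511), and with no filter on low values (0.0826). Its position in the deposited table is chromosome 1, 101511901 to 101514974, minus strand.

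The other regulators did not pass. Sesn2, a leucine sensor that restrains mTORC1, had 27.8, 30.8 and 29.9 FPKM with perhexiline and 24.8, 22.8 and 28.1 with vehicle, and the groups overlapped only through vehicle replicate 3 (log2 difference 0.22, adjusted p = 0.139). Eif4ebp1, which binds the cap-binding factor eIF4E and holds back translation, stood at 143, 127 and 128 FPKM with perhexiline and 125, 131 and 112 with vehicle (0.12, adjusted p = 0.361). Stc2, a secreted glycoprotein, was at 4.42 to 5.68 FPKM with perhexiline and 4.04 to 5.54 with vehicle (0.06, adjusted p = 0.787). Vldlr, a lipoprotein receptor, had a negative difference of -0.14 (adjusted p = 0.251), with 31.5, 31.5 and 31.7 FPKM with perhexiline and 37.4, 36.0 and 31.5 with vehicle. Vehicle replicate 3 of Vldlr was nearly level with the perhexiline libraries and just below them, so the groups overlapped.

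Fgf21, the secreted hormone of the list, was too low for the test. It was given 1.20, 2.44 and 0.457 FPKM in the perhexiline libraries, which stand for 13, 24 and 5 fragments, against 0.348 and 0.114 FPKM, or 3 and 1 fragments, in vehicle replicates 1 and 3, and it was listed at 0 in vehicle replicate 2. Each perhexiline value lay above each vehicle value. Without the filter on low values its log2(FPKM + 1) difference was 0.96 (SE 0.31), with an adjusted p of 0.191. At these fragment numbers neither group's level is well determined.

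The 6 transporters, all tested, had positive differences, and 2 of them rose. Of all tested genes, 52.9% were above 0 and 3.55% were called higher. Slc1a5 (ASCT2), an exchanger of neutral amino acids that carries glutamine, had 14.7, 15.4 and 15.3 FPKM in the perhexiline libraries, against 10.5, 10.9 and 9.66 in the vehicle libraries. The groups stood clearly apart, since the gap between them exceeded the range within either. The means were 15.2 ± 0.376 FPKM with perhexiline and 10.4 ± 0.644 with vehicle, a ratio of 1.46, with a log2 difference of 0.51 (SE 0.07) and the smallest adjusted p of the members, 0.0119. Slc1a5 passed in 4 of the 6 fits without a library (adjusted p 0.0220 to 0.0560) and missed the threshold without perhexiline replicate 2 (0.0516) or perhexiline replicate 3 (0.0560). It lies at chromosome 1, 78710539 to 78724794, plus strand, in the deposited table.

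Slc6a9 (GLYT1), a sodium-driven glycine importer, had 21.0, 22.6 and 22.4 FPKM in the perhexiline libraries, against 17.0, 16.5 and 17.5 in the vehicle libraries. Its groups did not overlap either, and its ratio of means was 1.29, with a log2 difference of 0.35 (SE 0.06, adjusted p = 0.0203). It kept its call in 2 of the 6 fits without a library (adjusted p 0.0258 to 0.0762), and it was lost without perhexiline replicate 2 (0.0722), perhexiline replicate 3 (0.0762), vehicle replicate 1 (0.0705) or vehicle replicate 2 (0.0737). The gene spans 136669674 to 136703697 on chromosome 5, plus strand.

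Slc38a2 (SNAT2), a sodium-coupled importer of small neutral amino acids, had the highest level per length of the members and lay just outside the threshold. It had 297, 336 and 284 FPKM in the perhexiline libraries, against 247, 237 and 261 in the vehicle libraries, with no overlap between the groups. The log2 difference was 0.30 (SE 0.07) with an adjusted p of 0.0516, and the adjusted p was 0.0548 to 0.146 when a library was left out. Other settings put it inside the threshold, namely a filter on a mean FPKM of at least 5 (0.0354), scaling to total fragments (0.0380), limma-voom (0.0233) and robust fitting (0.0429), while it stayed outside with a pseudocount of 0.1 (0.0529), upper-quartile scaling (0.0761) or no filter on low values (0.116). Slc7a1 (CAT1), the carrier of cationic amino acids, had 19.2, 19.6 and 21.7 FPKM with perhexiline and 20.6, 19.3 and 16.5 with vehicle (0.10, adjusted p = 0.517). Slc7a5 (LAT1), which exchanges large neutral amino acids, had 42.6, 46.3 and 48.1 FPKM with perhexiline and 46.4, 41.7 and 36.8 with vehicle (0.14, adjusted p = 0.378). In both genes vehicle replicate 1 lay among the perhexiline values, and in Slc7a1 vehicle replicate 2 did too. Slc1a4 (ASCT1), which carries alanine, serine and cysteine, was at 30.4 to 32.7 FPKM with perhexiline and 28.2 to 30.9 with vehicle (0.09, adjusted p = 0.359).

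**Figure D3:**
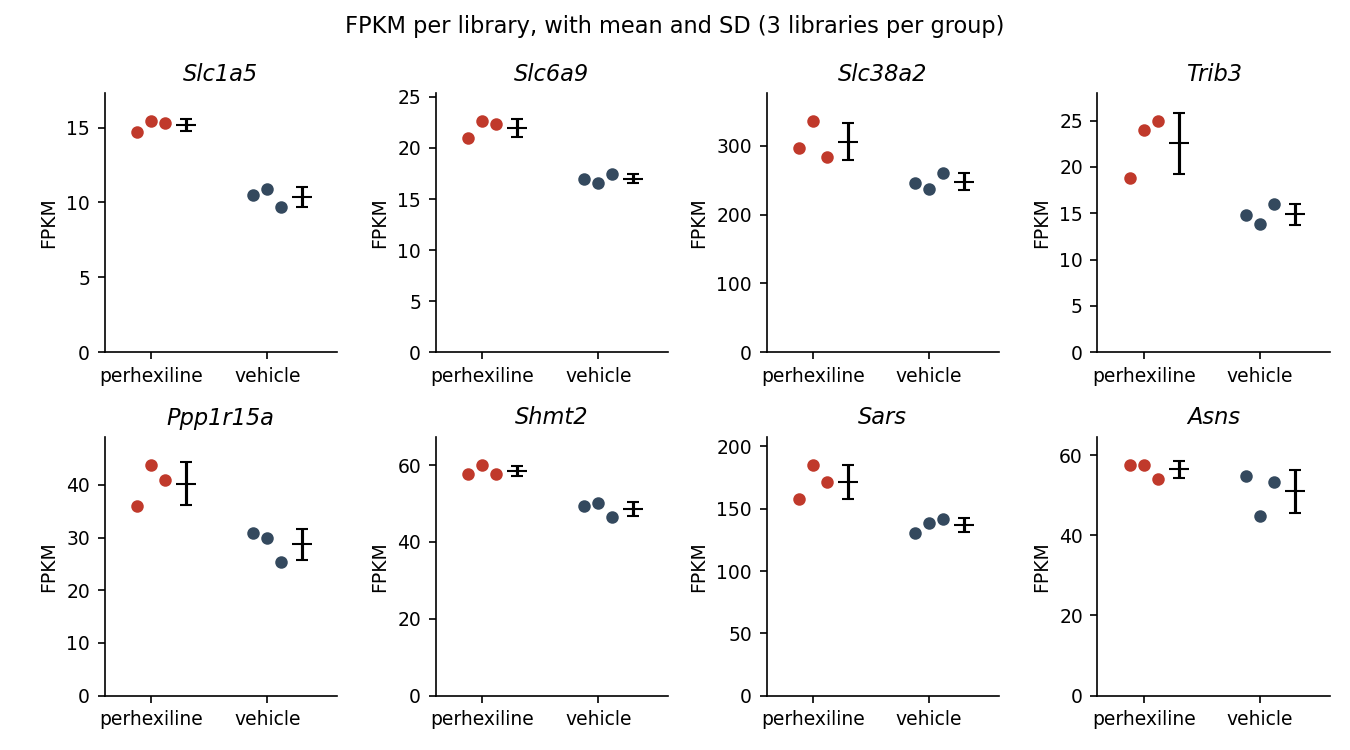
FPKM in each library (points) with mean and SD (bars) for the 6 members that rose with perhexiline and for Slc38a2 and Asns, which were not called, perhexiline at the left and vehicle at the right of each panel, 3 libraries per group, axes from 0. In each panel but that of Asns the lowest perhexiline point lies above the highest vehicle point, by the widest margin relative to the vehicle level in Slc1a5 (14.7 against 10.9 FPKM).

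Of the 7 tested enzymes of serine, glycine, one-carbon, proline and asparagine synthesis, 1 rose, where 3.55% of all tested genes did. Shmt2, the mitochondrial enzyme that turns serine into glycine and a one-carbon unit, had 57.8, 60.1 and 57.8 FPKM in the perhexiline libraries, against 49.3, 50.02 and 46.5 in the vehicle libraries. The perhexiline libraries lay close together and above all vehicle libraries. The means were 58.6 ± 1.34 FPKM with perhexiline and 48.6 ± 1.85 with vehicle, a ratio of 1.20, with a log2 difference of 0.26 (SE 0.05, adjusted p = 0.0282). The adjusted p ran from 0.0465 to 0.101 when a library was left out and passed in 2 of 6 such fits, with losses without perhexiline replicate 2 (0.101), perhexiline replicate 3 (0.0865), vehicle replicate 1 (0.0844) or vehicle replicate 2 (0.0757). Shmt2 also missed the threshold when low values were not filtered (0.0557). Its position in the deposited table is chromosome 7, 70824715 to 70829815, minus strand.

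Mthfd2, the enzyme that takes up the one-carbon unit from Shmt2 in the mitochondrion, differed in the other direction. It had 45.5, 44.9 and 41.3 FPKM with perhexiline and 52.8, 47.3 and 46.6 with vehicle, all perhexiline libraries below all vehicle libraries, yet the log2 difference of -0.15 did not pass (adjusted p = 0.2). The enzymes that make serine from a glycolytic intermediate were not called. Phgdh, the first of them, had 40.6, 40.1 and 41.8 FPKM with perhexiline and 39.1, 38.8 and 41.6 with vehicle (0.04, adjusted p = 0.691). Psat1, the aminotransferase of the next step, had 13.0, 14.1 and 13.6 FPKM with perhexiline and 11.2, 10.7 and 12.9 with vehicle, without overlap (0.21, adjusted p = 0.148). Psph, the phosphatase that completes the path, had 20.7, 19.5 and 17.4 FPKM with perhexiline and 21.6, 18.8 and 19.1 with vehicle (-0.05, adjusted p = 0.751), and its sign turned under total-fragment scaling (0.0060).

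Asns, asparagine synthetase and a widely used readout of ATF4, was not called. It had 57.6, 57.6 and 54.1 FPKM with perhexiline, against 54.8, 44.7 and 53.3 with vehicle, and perhexiline replicate 3 lay below vehicle replicate 1. The log2 difference was 0.15, with a 95% interval from -0.04 to 0.34 (adjusted p = 0.282). Both enzymes of proline synthesis were low. Pycr1, which makes proline from its direct precursor, had 5.40, 4.73 and 5.64 FPKM with perhexiline and 5.23, 4.44 and 4.46 with vehicle (0.13, adjusted p = 0.428). Aldh18a1, which makes that precursor from glutamate, was not tested, with 0.165 to 0.531 FPKM or 10 to 29 fragments with perhexiline and 0.113 to 0.251 FPKM or 6 to 12 fragments with vehicle.

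Of the 12 cytosolic tRNA synthetases, the enzymes that join each amino acid to its tRNA, 1 rose, 10 had positive and 2 negative differences. The share that rose, 8.33%, lies near the 3.55% of all tested genes called higher, and 52.9% of all tested genes were above 0. Sars, the seryl-tRNA synthetase, had 158, 185 and 172 FPKM in the perhexiline libraries, against 131, 139 and 142 in the vehicle libraries. The groups did not overlap, and perhexiline replicate 1 was the nearest to vehicle. The means were 172 ± 13.9 FPKM with perhexiline and 137 ± 5.84 with vehicle, a ratio of 1.25, with a log2 difference of 0.32 (SE 0.07, adjusted p = 0.0376). It passed in 2 of 6 fits without a library (adjusted p 0.0267 to 0.121) and was lost without perhexiline replicate 2 (0.113), perhexiline replicate 3 (0.113), vehicle replicate 1 (0.121) or vehicle replicate 2 (0.102), as well as with no filter on low values (0.0856). In the deposited table Sars lies at chromosome 2, 211219750 to 211235467, minus strand.

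Aars, the alanyl-tRNA synthetase, had 154, 163 and 166 FPKM with perhexiline and 146, 143 and 143 with vehicle, again without overlap. Its log2 difference of 0.16 did not pass (adjusted p = 0.0763) except under total-fragment scaling (0.0376). Tars, for threonine, had 55.9, 60.2 and 61.4 FPKM with perhexiline and 55.2, 49.9 and 51.9 with vehicle (0.17, adjusted p = 0.115). Nars, for asparagine, had 103, 109 and 106 FPKM with perhexiline and 102, 91.5 and 96.5 with vehicle (0.13, adjusted p = 0.173). Yars, for tyrosine, had 64.2, 69.5 and 69.0 FPKM with perhexiline and 62.9, 63.7 and 61.1 with vehicle (0.11, adjusted p = 0.218). Perhexiline replicate 1 was the lowest perhexiline library in each of these 4 genes and came close to the highest vehicle library in Tars, Nars and Yars.

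Wars, for tryptophan, had 37.8, 41.9 and 42.4 FPKM with perhexiline and 38.1, 33.03 and 36.8 with vehicle (0.17, adjusted p = 0.182), and Eprs, which charges both glutamate and proline, had 91.3, 100.4 and 99.5 with perhexiline and 92.8, 88.1 and 88.2 with vehicle (0.11, adjusted p = 0.234). In both, perhexiline replicate 1 lay below vehicle replicate 1. Differences were near 0 for Mars (methionine, 0.05, adjusted p = 0.539), Gars (glycine, 0.04, adjusted p = 0.587), Cars (cysteine, 0.01, adjusted p = 0.917) and Lars (leucine, -0.01, adjusted p = 0.922). The signs for Lars and Cars depended on scaling, with 0.044 for Lars under total-fragment scaling and -0.017 for Cars under upper-quartile scaling. The interval for Gars, -0.06 to 0.14, bounds the size of any difference. Iars, for isoleucine, was the other synthetase besides Lars with a negative difference, with 28.9, 26.8 and 27.6 FPKM with perhexiline and 31.4, 29.1 and 30.01 with vehicle, without overlap but not past the threshold (-0.12, adjusted p = 0.221). Summed over the 12 genes, the level was 1031 ± 35.9 FPKM with perhexiline and 943 ± 18.5 with vehicle.

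The members did not move evenly over the libraries. Of the 31 tested members, 12 were highest in perhexiline replicate 2, 11 in perhexiline replicate 3, 3 in perhexiline replicate 1 and 5 in vehicle replicate 1, and 17 were lowest in vehicle replicate 2 and 9 in vehicle replicate 3. Relative to the vehicle mean, the median log2 value over the members was 0.09, 0.16 and 0.15 in perhexiline replicates 1, 2 and 3, against 0.03, -0.04 and -0.01 in vehicle replicates 1, 2 and 3. For the synthetases, perhexiline replicate 1 had a median of 0.05 and vehicle replicate 1 of 0.04, so that these libraries were nearly level, while perhexiline replicates 2 and 3 had 0.16 and 0.14. For the transporters, the medians were 0.15, 0.27 and 0.21 in the perhexiline libraries and 0.02, -0.01 and -0.03 in the vehicle libraries. Leaving out vehicle replicate 1 moved the median difference over the members to 0.17, and leaving out perhexiline replicate 3 moved it to 0.10.

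**Figure D4:**
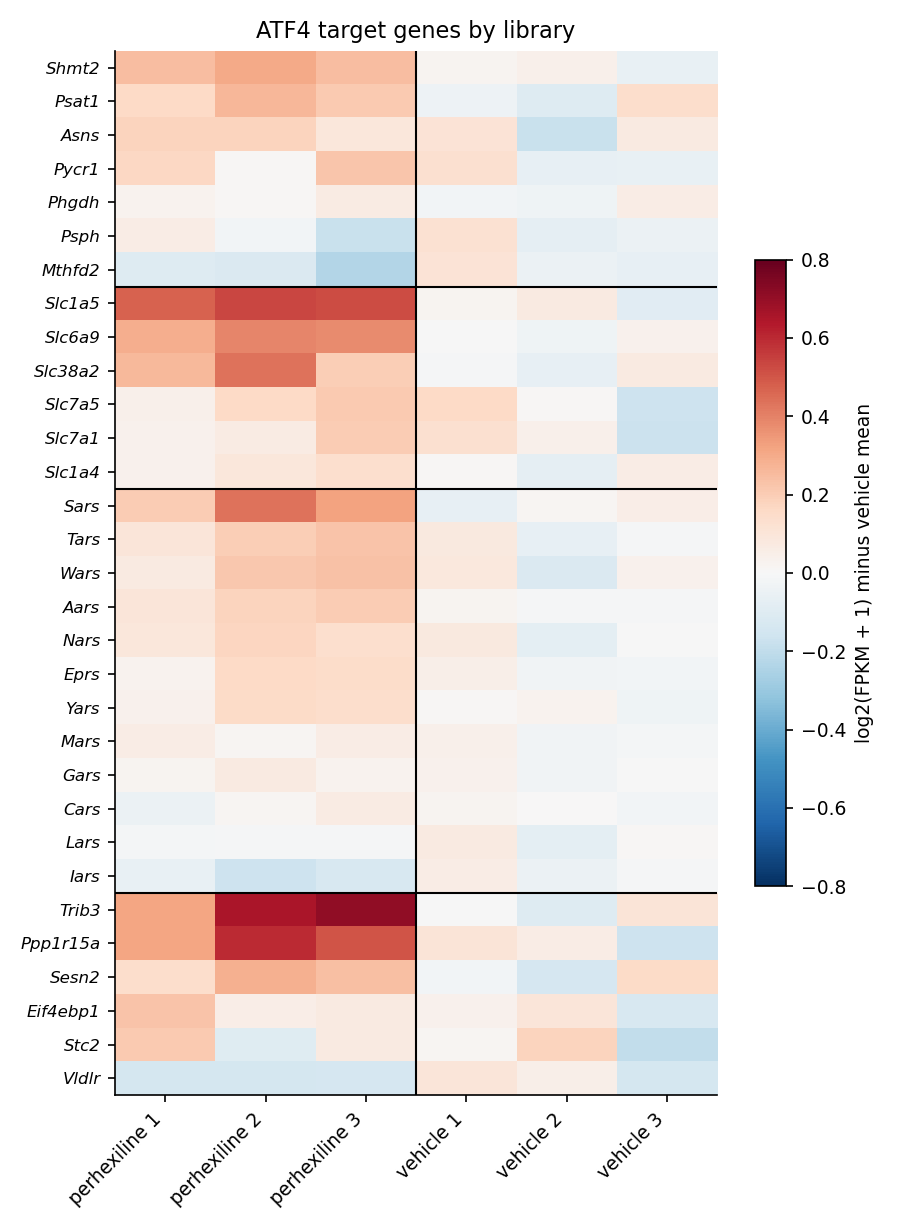
Log2(FPKM + 1) minus the vehicle mean for each tested member (rows, grouped by role) in each library (columns, perhexiline at the left of the black line, vehicle at the right). Perhexiline replicates 2 and 3 hold the highest value of 12 and 11 members, and vehicle replicate 1 is the highest library for 5.

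Other genes of the response were compared next, from lists of pathway genes that, like the members, were drawn up with earlier results of these data known. Of 11 tested genes for ATF4 itself and its partner transcription factors, 7 rose and 0 fell, and the median of their log2 differences was 0.39. At an unadjusted p under 0.05, 10 were higher and 0 lower, and limma-voom called 10 higher and 0 lower. Of all tested genes, 3.55% were called higher by limma, 13.4% were higher at an unadjusted p under 0.05 and 5.25% were called higher by limma-voom. Atf4, which falls outside the rule for named genes and was added because the members are its targets, had 188, 204 and 187 FPKM with perhexiline and 167, 143 and 156 with vehicle, a ratio of 1.24 (log2 difference 0.31, adjusted p = 0.039). It passed in 0 of the 6 fits without a library (adjusted p 0.0592 to 0.132). Ddit3, which encodes CHOP and was also added, had 64.2, 78.9 and 72.1 FPKM with perhexiline and 35.2, 40.9 and 53.4 with vehicle (0.73, adjusted p = 0.0332, and 0.0169 to 0.114 without a library). By the rule, Atf3 (1.11, adjusted p = 0.0125), Cebpb (0.84, adjusted p = 0.00928), Cebpd (0.55, adjusted p = 0.0282) and Jun (0.39, adjusted p = 0.0203) were named, all of them bZIP factors that can pair with others of their family. Of these 4 genes, Cebpb alone passed in every fit without a library, while the adjusted p reached 0.0584 for Atf3, 0.0743 for Jun and 0.0888 for Cebpd. The count for the list was 1 without perhexiline replicate 2, 2 without perhexiline replicate 3, vehicle replicate 1 or vehicle replicate 2, 6 without perhexiline replicate 1, 8 without vehicle replicate 3 and 2 with no filter on low values. Rises over all genes, 478 in the main fit, also dropped. They were 74 without perhexiline replicate 2, 56 without perhexiline replicate 3, 87 without vehicle replicate 1 and 100 without vehicle replicate 2.

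Of 19 tested genes on a list of other known or proposed ATF4 targets, 8 rose and 1 fell, with a median of 0.29. Of all tested genes, 3.55% were called higher and 3.11% lower. Angptl4, an inhibitor of lipoprotein lipase that is also a PPAR target, had 16.3 ± 2.38 FPKM with perhexiline and 3.90 ± 0.925 with vehicle (log2 difference 1.83, adjusted p = 0.00508). Gdf15, a secreted stress cytokine, had a log2 difference of 1.77 (adjusted p = 0.00944), and Ddit4, an inhibitor of mTORC1, one of 0.91 (adjusted p = 0.00508). Bcat1, the cytosolic aminotransferase of branched-chain amino acids, had 33.1 ± 2.05 FPKM with perhexiline and 22.6 ± 0.454 with vehicle (0.53, adjusted p = 0.00898). These 4 genes passed in all 6 fits without a library. The gene that fell was Got1, the cytosolic aspartate aminotransferase, named because it was the only one, with 159 ± 8.24 FPKM with perhexiline and 193 ± 6.82 with vehicle (-0.28, adjusted p = 0.0319, passing in 1 of 6 fits, that without vehicle replicate 3, and not when low values were unfiltered). The count of rises was 4 without perhexiline replicate 2, perhexiline replicate 3, vehicle replicate 1 or vehicle replicate 2, and 4 with no filter on low values. Over all genes the rises numbered 74, 56, 87, 100 and 99 in these fits, in that order, against 478.

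In each of 4 further lists, of translation initiation, amino acid or tRNA synthetase genes, 1 gene rose and none fell. These are shares of 5.00% to 9.09% that lie near the 3.55% of all tested genes called higher. Of 17 genes for eIF2 kinases and initiation factors, 1 rose, the kinase Eif2ak2 (PKR), which senses double-stranded RNA, with 25.1 ± 1.36 FPKM with perhexiline and 18.8 ± 1.34 with vehicle (0.40, adjusted p = 0.0256). Of 20 other amino acid transporters, 1 rose, Slc3a2, the heavy chain that pairs with Slc7a5, with 209 ± 13.4 FPKM with perhexiline and 161 ± 7.92 with vehicle (0.38, adjusted p = 0.022). Slc3a2 is counted among the 8 rises of the list before as well, to which it also belongs. Of 11 other cytosolic synthetases and scaffold proteins, 1 rose, Aimp2, a scaffold of the multisynthetase complex, with 58.6 ± 2.32 FPKM with perhexiline and 49.2 ± 2.49 with vehicle (0.25, adjusted p = 0.0423). Of 16 other one-carbon, glycine and proline genes, 1 rose, Shmt1, the cytosolic counterpart of Shmt2, with 13.8 ± 0.792 FPKM with perhexiline and 10.8 ± 0.920 with vehicle (0.34, adjusted p = 0.04996). These single rises were lost when perhexiline replicate 2, perhexiline replicate 3, vehicle replicate 1 or vehicle replicate 2 was left out, with adjusted p of up to 0.0874 for Eif2ak2, 0.0814 for Slc3a2, 0.142 for Aimp2 and 0.161 for Shmt1. Aimp2 was also lost without perhexiline replicate 1, and Shmt1 passed in none of the 6 such fits. With no filter on low values, none of these 4 rises passed. The list medians were 0.11, 0.08, 0.10 and -0.02, in the order given, and the last was 0.02 under total-fragment scaling.

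The mitochondrial tRNA synthetases, which charge tRNA inside the organelle and are encoded by separate nuclear genes, had mostly negative differences. Of 16 tested, 12 were below 0 and 25.0% above it, with a median of -0.07, against 2 of 12 below 0 and a median of 0.11 for the cytosolic members, and 52.9% of all tested genes were above 0. None was called by limma, with 0 higher and 4 lower at an unadjusted p under 0.05, and limma-voom called 0 higher and 1 lower, where 12.3% and 6.29% of all tested genes were lower by these rules, so the share by limma-voom lay near that of all genes. Iars2, the mitochondrial counterpart of Iars, had 25.7 ± 0.583 FPKM with perhexiline and 29.4 ± 0.490 with vehicle (-0.19, adjusted p = 0.0591), and Tars2, that of Tars, had 19.5 ± 0.573 with perhexiline and 21.8 ± 0.830 with vehicle (-0.15, adjusted p = 0.132). The difference between both sets of synthetases was not tested. The median of the mitochondrial set was nearest to 0 under total-fragment scaling (-0.02), among the alternatives tried. Of 9 tested family relatives of the regulators, none was called by limma, with 1 higher and 1 lower at an unadjusted p under 0.05 and 0 and 1 by limma-voom. Their median was -0.03, which was 0.02 under total-fragment scaling. Among them Fgfr1, a receptor for fibroblast growth factors, had 45.4 ± 1.23 FPKM with perhexiline and 46.5 ± 2.35 with vehicle (-0.03, adjusted p = 0.726).

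**Figure D5:**
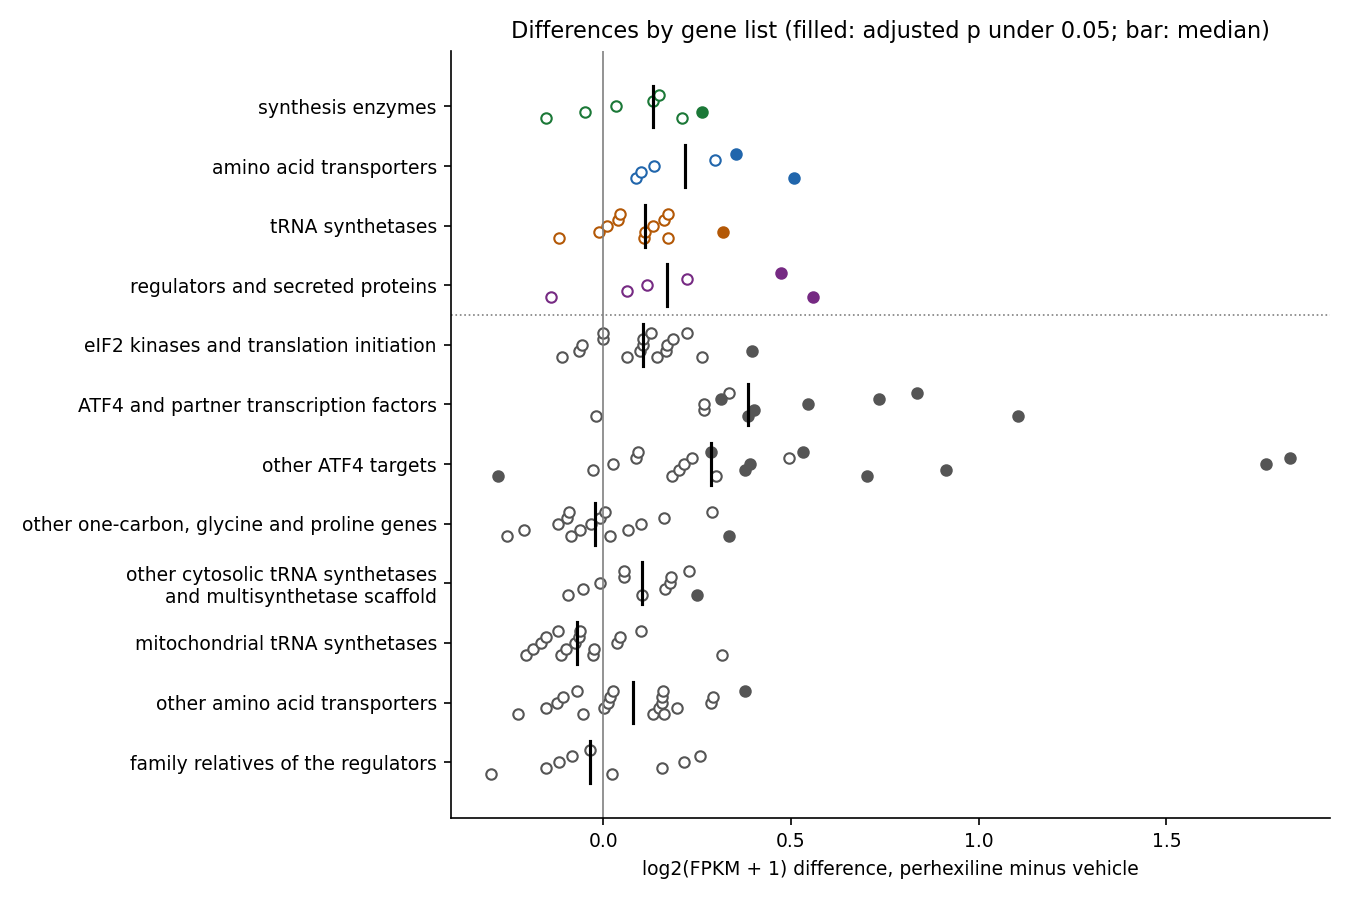
Log2(FPKM + 1) difference, perhexiline minus vehicle, for each tested gene (points) of the 4 member groups and the 8 lists of other pathway genes (rows), with a bar at the median of each row. Filled points passed the threshold. They number 7 of 11 among the transcription factors and 9 of 19 among the other ATF4 targets, lists drawn up with earlier results of these data known. The mitochondrial synthetases have none.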

How the data were processed

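The authors deposited 1 table of FPKM values per gene and library, per the file headers, with gene lengths and coordinates. Tools named in the submitters' processing notes are HISAT2 2.0.5 and DESeq2. The sources used here name no genome build, counting program or strand setting, so reads of antisense, overlapping or near-identical genes cannot be told apart. Multiplied by gene length, 100% of positive values were whole multiples of one step per library (within 0.01), taken as fragments, which gave the depth. The table held no value column of another sample (0), and replicates of a group had 0 identical positive values.

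Tested genes had 1 FPKM or more in 3 or more of the 6 libraries. The test was run on log2(FPKM + 1), which understates the change of low genes, with limma 3.58.1 in R 4.3.3 (mean-variance trend, group as the only term, two-sided). It was tried on simulated data first. The changes planted there were larger than those of the tested members, so the trial does not show how well changes of their size are found. Adjusted p-values are Benjamini-Hochberg values from this fit over 13460 genes unless another setting or a left-out library is named, when they come from that fit over its own tested genes, and a call needs one under 0.05. Folds are ratios of mean FPKM, and "±" is an SD over 3 libraries. Members and lists were chosen with earlier results of these data known. Named genes were all members and, per pathway list, the called genes of lowest adjusted p (up to 4) or, lacking any, the 2 of highest mean FPKM, while markers, apart from Acta2, were given as list sums. One gene that this rule names is not reported here. Alternatives were another pseudocount, other filters, other scalings, limma-voom, robust fitting, a replicate block, leaving out each library and a longer promoter window. Promoters were matched to RefSeq by symbol.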

Additional observations from a re-analysis of the deposited data

How the results depend on the processing

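The number of all genes called, 896, was 162 with no filter on low values, 173 with the replicate number as a block, 1553 with limma-voom, and 87 to 841 when a library was left out. The number of members called higher, 6, was 2 with no filter, 1 with the replicate block, 6 to 8 under the other settings, and 0 to 6 when a library was left out, and no member was called lower under any of these. Among the synthesis enzymes, 1 was called, against 0 with no filter, 0 with the block and 0 to 1 with a library left out. Among the transporters, 2 were called, against 1 with the block, 3 with a mean FPKM of at least 5, total-fragment scaling, limma-voom or robust fitting, and 0 to 2 with a library left out. Among the synthetases, 1 was called, against 0 with no filter, 0 with the block, 2 under total-fragment scaling and 0 to 1 with a library left out. Among the regulators and secreted proteins, 2 were called, against 0 with no filter, 0 with the block and 0 to 2 with a library left out. The pathway lists held 19 called genes, against 6 with no filter, 6 with the block, 18 to 28 under the other settings (28 with limma-voom) and 5 to 19 with a library left out. Members without overlap between groups numbered 14, and 15 to 21 with a library left out, where fewer libraries make overlap rarer. In windows of 300 bases, an alternative chosen after seeing the data, 12 members held the motif, against 10 in 250 bases. Signs turned for Psph (0.0060) and Lars (0.044) under total-fragment scaling and Cars (-0.017) under upper-quartile scaling, and with a library left out the differences ranged from -0.10 to 0.017 for Psph, -0.051 to 0.024 for Lars, -0.018 to 0.040 for Cars and -0.036 to 0.15 for Stc2. The cause of these changes was not tested. Same-numbered libraries of the groups had correlations of -0.02, -0.10 and -0.04 between their deviations from the group means. Differently numbered libraries had correlations from -0.05 to 0.09. The values show no sign of pairing by number, but so few libraries cannot settle whether the samples were paired. Aldh18a1 and Fgf21 were left out of the test by their low FPKM.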
